A study of Mus musculus with 4 samples.

Results

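The secreted WNT antagonists Sost, Dkk1, Dkk2, Dkk3, Sfrp1, Sfrp2, Sfrp4, Frzb, Wif1 and Notum were examined in single cells from the bone and marrow of 2 mice. They are 10 of the 32285 genes in the matrices, taken by symbol, and each had at least 1 transcript in the kept cells of both libraries. A transcript was counted as a unique molecular identifier (UMI). The cells came from the femurs and tibias of 1 young mouse (6 months) and 1 old mouse (24 months), and there was 1 library per mouse. For its single-cell RNA sequencing the paper names aged, untreated carriers of the INK-ATTAC transgene. In this transgene a fragment of the p16 promoter drives an inducible caspase. All young mice of the paper were untreated, and it does not state the genotype of the young mouse sequenced here. Marrow and enzymatically digested bone were pooled per mouse, stained with an oligonucleotide-tagged antibody to CD24, depleted of lineage-positive cells on magnetic beads and sorted for live CD45- cells. Cells that stay in mineral during digestion, osteocytes among them, may be missing from such a suspension, and the size of that loss was not tested.

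WNT proteins bind a Frizzled receptor and the co-receptor LRP5 or LRP6, and the signal lets beta-catenin accumulate. In bone this pathway promotes osteoblast formation and restrains resorption. Its secreted antagonists act at separate points. Sclerostin (Sost), made mainly by osteocytes, and DKK1 occupy LRP5 and LRP6. The SFRP family, to which FRZB belongs, and WIF1 bind WNT ligands themselves, and NOTUM is an enzyme that removes the lipid that WNT needs to engage Frizzled.

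After removal of barcodes with under 200 genes or over 20% mitochondrial UMIs, 10063 of 11371 young and 5607 of 6729 old barcodes remained, with medians of 6385 and 9711 UMIs. The libraries shared 19 barcodes. Each cell was placed in the class for which it held most of 8 marker genes at 2 or more UMIs, with at least 3 markers needed. This gave 6 mesenchymal groups: stromal (3065 young and 1863 old cells), osteoblast (887 and 488), chondrocyte (136 and 54), fibroblast (2763 and 1252), tendon (690 and 244) and pericyte or smooth muscle (70 and 71). None of the antagonists served as a marker. The own markers led in 5 of the 6 groups in both mice. The chondrocyte group also carried tendon markers, at a summed 9847 UMIs per 1e6 UMIs (CPM) in the young and 15413 CPM in the old library, against 12659 and 8951 CPM of its own markers. Osteoblast markers stood there at 10732 and 12651 CPM, so its values belong to a mixed group. Of the cells in the osteoblast group, 38.7% in the young and 29.9% in the old library stood near the cut. These cells had exactly 3 markers or led the next class by 1 marker. The stromal group held neutrophil markers at 3536 CPM in the young and 4933 CPM in the old library, and the part of such RNA in the results was not tested.

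Promoters are shown for Sost, Dkk1 and Wif1, because transcripts of these 3 antagonists were found in the same cells. Each sequence is the 250 bases before the RefSeq gene start in mouse GRCm38.p6, written 5′ to 3′ on the strand of the gene, and capitals mark matches to the motifs searched.
Sost promoter, chr11:101967016-101967265, minus strand: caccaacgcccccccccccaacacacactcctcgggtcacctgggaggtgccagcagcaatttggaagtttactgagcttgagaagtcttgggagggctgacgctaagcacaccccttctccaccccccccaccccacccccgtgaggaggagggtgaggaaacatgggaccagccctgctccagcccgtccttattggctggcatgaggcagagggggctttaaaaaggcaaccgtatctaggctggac
Dkk1 promoter, chr19:30549497-30549746, minus strand: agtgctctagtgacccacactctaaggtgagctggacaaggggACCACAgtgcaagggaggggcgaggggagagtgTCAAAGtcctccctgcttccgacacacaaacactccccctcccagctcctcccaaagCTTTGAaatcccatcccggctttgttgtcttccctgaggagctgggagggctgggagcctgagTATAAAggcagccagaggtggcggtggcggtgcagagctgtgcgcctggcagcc
Wif1 promoter, chr10:121033754-121034003, plus strand: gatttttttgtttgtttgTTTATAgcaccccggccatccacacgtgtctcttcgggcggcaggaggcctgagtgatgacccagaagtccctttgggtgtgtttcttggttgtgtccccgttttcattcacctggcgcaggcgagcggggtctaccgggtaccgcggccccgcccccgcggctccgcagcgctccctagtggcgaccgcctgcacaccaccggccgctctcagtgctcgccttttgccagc
The letters CTTTGA, the core of a TCF/LEF site, were searched on both strands and occurred in 13.8% of the 32851 promoters of the same table. TGTGGT, a RUNX core, occurred in 14.0%, and TATAAA in 12.4%. None of these motifs overlapped another in the promoters shown. The Dkk1 promoter held CTTTGA at 117 bases before the start, its reverse complement at 174, the reverse complement of TGTGGT at 207 and TATAAA at 54. The Wif1 promoter held the reverse complement of TATAAA at 232 bases before the start, and the Sost window held none of these letters. The table had promoters for 6 of the 10 antagonists. Among these, CTTTGA also occurred in Frzb and TATAAA in Dkk2. The Sost gene itself lies at chr11:101962458-101967015, Dkk1 at chr19:30545876-30549496 and Wif1 at chr10:121034004-121100642.

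Each antagonist had its own place among the mesenchymal groups. Dkk1 was an osteoblast-group transcript, Dkk2 was highest in fibroblast cells, Dkk3 and Sfrp2 in tendon cells, and Frzb, Wif1 and Notum in the chondrocyte group, while Sfrp1 and Sfrp4 were shared by the stromal and fibroblast groups. To test these levels, UMIs were summed per group and mouse and each group was compared with the equally weighted mean of the other groups by edgeR, with the mouse as a block (n = 2 mice). Sost was too sparse to be tested. The other 9 antagonists gave 54 pairs of gene and group, of which 29 passed an adjusted p of 0.05, 18 higher and 11 lower. All 9 were higher in at least 1 group, and the share of all genes for which this held was not counted. The groups were set from RNA of the same cells, so their separation is partly built in, and much of the transcriptome passed the same test. Of the 14071 genes tested, 26.5% were called higher and 18.7% lower in the stromal group, where 2 antagonists were higher and 1 lower. In the osteoblast group 5 were higher and 1 lower, against a background of 13.3% and 8.61%. In the chondrocyte group 3 were higher and 3 lower, against 11.7% and 8.45%. The fibroblast group had 4 higher and 0 lower, against 16.8% and 9.23%, and the tendon group 4 higher and 0 lower, against 9.63% and 2.94%. In the pericyte or smooth muscle group 0 were higher and 6 lower, against 11.1% and 8.93%. Thinned to 2000 UMIs per cell, 8 of the 29 calls were lost, namely Sfrp1, Sfrp2 and Notum in osteoblast, Sfrp1 and Sfrp2 in chondrocyte, Wif1 in tendon, and Sfrp1 and Frzb in pericyte or smooth muscle cells. With 4 markers needed, Sfrp2 in osteoblast and chondrocyte cells and Frzb in pericyte or smooth muscle cells were lost, and with markers counted from 1 UMI the direction of Sfrp4 in the chondrocyte group turned.

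**Figure D1:**
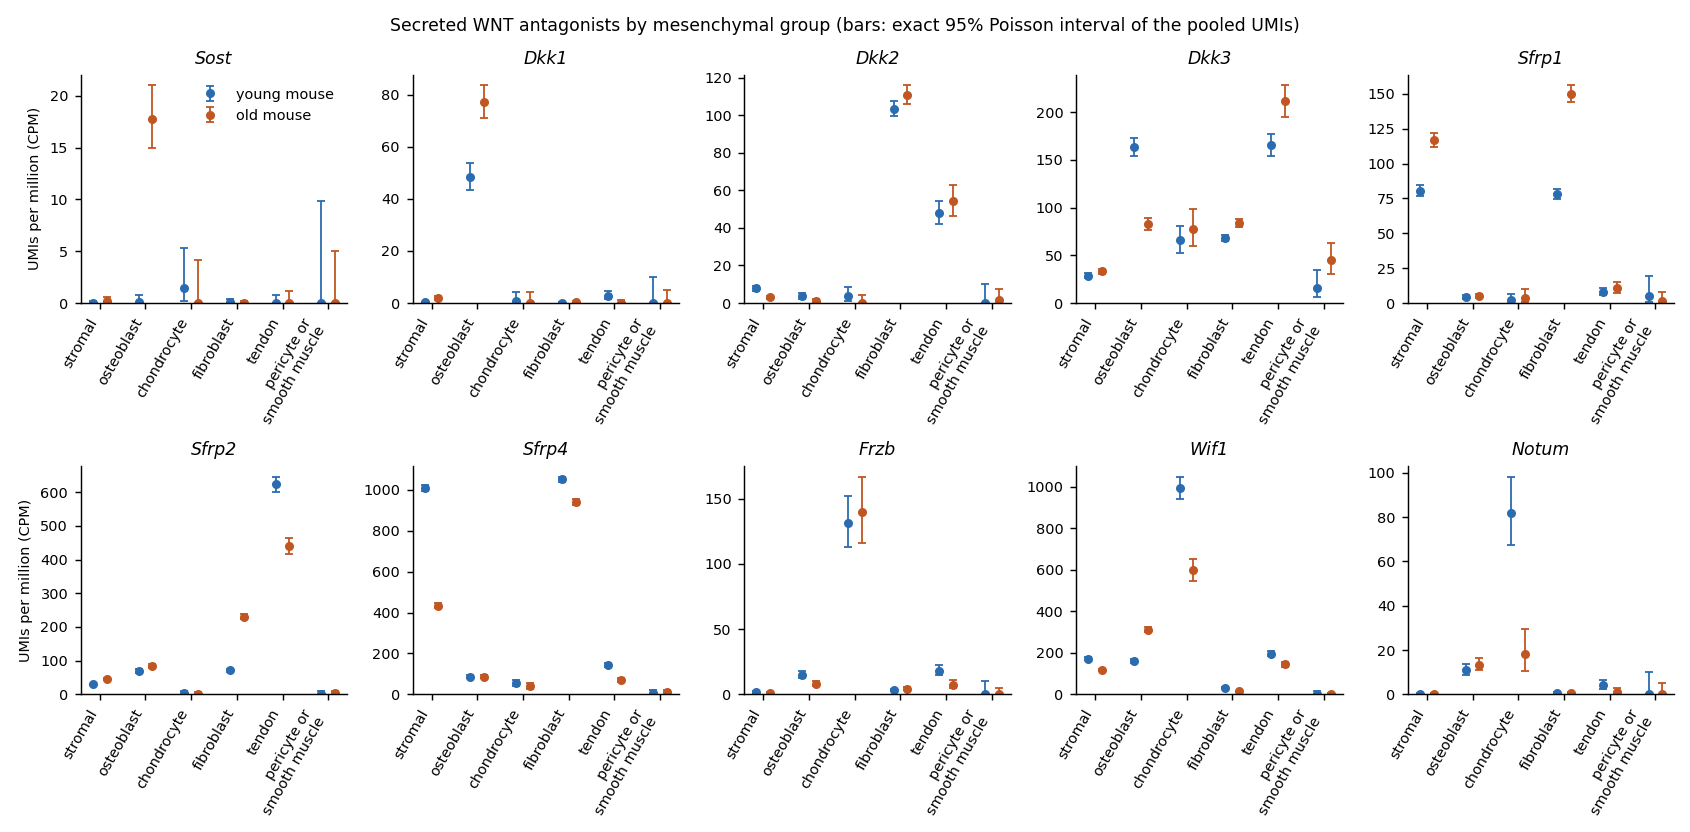
UMIs per 1e6 (y axis, a separate linear scale for each gene) of the 10 antagonists in the 6 mesenchymal groups (x axis), with 1 point for the young mouse and 1 for the old mouse; bars are exact 95% Poisson intervals of the pooled UMIs and cover counting error only. Dkk1 stands at 48.4 and 77.2 CPM in the osteoblast group and at 2.80 CPM or below in the others, and Frzb at 131 and 140 CPM in the chondrocyte group.

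Among the antagonists of LRP5 and LRP6, Sost was nearly confined to the old osteoblast group. Its level there was 17.8 CPM (140 UMIs) in the old mouse and 0.139 CPM (1 UMI) in the young mouse. Elsewhere the old library held 4 Sost UMIs in 1 stromal cell and 3 in 1 unassigned cell, and the young library held 3 in 1 fibroblast cell and 2 in 1 chondrocyte cell. Dkk1 reached 48.4 CPM in young and 77.2 CPM in old osteoblast cells (349 and 607 UMIs, adjusted p = 4.59e-06). The next levels were 2.80 CPM in young tendon cells and 1.92 CPM in old stromal cells, so the osteoblast group stood alone in both mice. Dkk1 UMIs were present in 8.91% of young and 19.7% of old osteoblast cells, against 0.227% and 0.379% of cells in the blood classes, at median depths of 6670, 13100.5, 6373 and 7189 UMIs. With cells thinned to 2000 UMIs and shallower cells left out (7291 of 7611 young and 3828 of 3972 old mesenchymal cells stayed), the osteoblast shares were 5.03% and 8.77%, against 0.126% and 0.147% in blood classes.

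Dkk2, whose product can block or permit WNT signalling depending on its co-receptors, was a fibroblast and tendon transcript. It was at 103 and 111 CPM in young and old fibroblast cells (adjusted p = 1.44e-06) and at 48.0 and 54.0 CPM in tendon cells (adjusted p = 0.000231). The stromal group followed at 7.78 and 2.94 CPM, and the order of these 3 groups was the same in both mice. Dkk3, a divergent family member that does not bind LRP6 as DKK1 does, had UMIs in all 6 groups of both mice. Tendon cells held 165 and 211 CPM, a log2 fold of 1.68 ± 0.21 (SE) over the mean of the other groups (adjusted p = 0.000438). Osteoblast cells held 163 CPM in the young and 82.6 CPM in the old library, a log2 fold of 1.04 ± 0.21 (adjusted p = 0.00544). The young tendon and osteoblast levels differed by less than their counting intervals, and in the old mouse the osteoblast level lay next to the 83.5 CPM of fibroblast cells. Dkk3 was lower in the stromal group, at 28.8 and 33.1 CPM (log2 fold -1.65 ± 0.25, adjusted p = 0.000329), and in the pericyte or smooth muscle group, at 16.1 and 44.7 CPM (-1.39 ± 0.38, adjusted p = 0.0252). The median over all genes in that last comparison was -0.16.

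The WNT-binding SFRP family divided between marrow stroma, fibroblast and tendon cells. Sfrp1 was at 80.4 and 117 CPM in young and old stromal cells and at 77.9 and 150 CPM in fibroblast cells, and the order of these groups turned between the mice. Both were above the other groups, with log2 folds of 3.40 ± 0.16 (adjusted p = 5.52e-08) and 3.81 ± 0.15 (adjusted p = 4.19e-08). Sfrp1 fell to between 1.36 and 5.35 CPM in osteoblast, chondrocyte and pericyte cells, where it was lower than the mean of the others by 1.60 ± 0.32, 2.35 ± 0.49 and 2.83 ± 0.58 on the log2 scale. Sfrp4 was carried by the same groups. It was at 1008 and 434 CPM in stromal cells (log2 fold 2.86 ± 0.21, adjusted p = 1.82e-06) and at 1051 and 939 CPM in fibroblast cells (3.74 ± 0.20, adjusted p = 4.74e-07). Of young stromal cells, 88.5% held a Sfrp4 UMI, against 73.0% of old ones and 9.86% and 8.21% of blood-class cells. At 2000 UMIs per cell these shares were 75.6%, 44.9%, 2.77% and 1.47%. Sfrp4 was lowest in pericyte or smooth muscle cells, at 5.35 and 9.49 CPM (log2 fold -4.63 ± 0.47, adjusted p = 3.97e-05).

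Sfrp2 separated from its relatives. Tendon cells held 624 CPM in the young and 441 CPM in the old mouse (adjusted p = 9.67e-06), the highest level in each. Fibroblast cells followed with 70.9 and 231 CPM (adjusted p = 0.000695) and osteoblast cells with 68.7 and 83.8 CPM (adjusted p = 0.0249), and the latter groups could not be ordered in the young mouse. The chondrocyte group held 5.10 and 2.27 CPM and was called lower (adjusted p = 0.0489). Frzb, an SFRP relative first known from cartilage, was highest in the chondrocyte group at 131 and 140 CPM (adjusted p = 6.55e-07). Osteoblast cells held 14.8 and 8.27 CPM and tendon cells 18.2 and 7.20 CPM, with adjusted p-values of 0.0506 and 0.0570.

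Wif1, which binds WNT through its own WIF domain, was also highest in the chondrocyte group, at 994 and 597 CPM (adjusted p = 4.69e-06). It stayed well above the blood classes, which held 2.20 and 1.02 CPM, in most other groups. Osteoblast cells held 161 and 312 CPM (adjusted p = 0.00123) and tendon cells 196 and 144 CPM (adjusted p = 0.0322). Stromal cells held 172 and 117 CPM (adjusted p = 0.0717), and these 3 groups changed order between the mice. Fibroblast cells were lower in both, at 30.6 and 14.2 CPM. Notum was at 81.7 CPM in young and 18.2 CPM in old chondrocyte cells (adjusted p = 4.81e-05), and at 10.8 and 13.4 CPM in osteoblast cells (adjusted p = 0.00195). It was under 5 CPM in all other groups.

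In the pericyte or smooth muscle group most antagonists were scarce, while Dkk3 had 6 young and 33 old UMIs. Sost, Dkk1, Frzb and Notum had no UMI there in either mouse, which allows up to 8.03 CPM in the young and 4.07 CPM in the old library at a floor of 3 counts. Sfrp2 had 0 young and 2 old UMIs (adjusted p = 0.00482), and Wif1 had 1 young and 0 old UMIs (adjusted p = 0.000312). With 70 and 71 cells, this group had the fewest UMIs of all.

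The UMIs of most antagonists were spread over many cells, and those of Sost were not. Over all kept cells, the top cell held 40 of 147 Sost UMIs (27.2%) in the old library and 3 of 6 (50%) in the young library. For Frzb the top cell held 9.02% of young and 10.5% of old UMIs, and for Dkk1 8.75% and 4.68%. The shares were 5.80% and 5.88% for Notum, 4.14% and 4.31% for Sfrp2, 2.01% and 3.97% for Wif1, 1.18% and 2.22% for Dkk2 and 2.32% and 1.36% for Sfrp1. For Dkk3 the shares were 0.595% and 0.870%, and for Sfrp4 0.515% and 1.68%. The top old cells for Sfrp2 and Wif1 were in no group, with 354 Sfrp2 UMIs in the first and 268 Wif1 UMIs in the second.

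Sost transcripts were read in 13 old cells and 3 young cells, and they could be described one by one. The 13 old cells held 40, 34, 24, 12, 11, 8, 7, 4, 3, 1, 1, 1 and 1 Sost UMIs, and 11 of them were in the osteoblast group. Of the 13, 11 held at least 5 of 8 osteocyte markers. Phex, an endopeptidase of phosphate control, and Dmp1, a matrix protein of osteocytes, were each found in 11 cells. The transcription factor gene Irx5 was found in 13 and the phosphatase gene Ptprz1 in 12. Mepe and Kcnk2 were each seen in 2 cells, and Fgf23 in 0. The 477 old osteoblast-group cells without Sost held a median of 2 of these osteocyte markers. Ptprz1 was found in 355 of the 477 and Kcnk2 in 134, so Ptprz1 was common without Sost too. Irx5 was found in 177 of the 477, Dmp1 in 116, Phex in 106 and Mepe in 21. These counts were not adjusted for depth. Dmp1 was also 1 of the 8 osteoblast markers that placed the cells. None of the 13 was called a doublet.

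The same cells carried Wif1 and Dkk1. Wif1 was present in 13 of 13 old Sost-bearing cells, with 600 UMIs in all and up to 142 in 1 cell. Dkk1 was present in 10 of 13, with 163 UMIs. No UMI of Dkk2, Sfrp1, Sfrp2 or Frzb was seen in any of the 13, while Dkk3 was seen in 1, Sfrp4 in 2 and Notum in 2. Among the 477 old osteoblast-group cells without Sost, Dkk2 was seen in 4, Sfrp1 in 21, Sfrp2 in 49 and Frzb in 24. Dkk3 was seen in 176 of the 477, Sfrp4 in 206 and Notum in 43. Wif1 was seen in 228 of the 477 (47.8%) and Dkk1 in 87 (18.2%), so neither was confined to cells with Sost. Dkk2, Sfrp1, Sfrp2 and Frzb were thus scarce without Sost too, and 13 cells are too few to tell their absence from that share. The Sost-bearing cells were deeper than their neighbours: the 11 in the osteoblast group had a median of 20553 UMIs and the 477 without Sost a median of 12742. Scaled to depth, Dkk1 stood at 574 CPM in the 11 and 60.7 CPM in the 477, and Wif1 at 2035 and 254 CPM. Phex stood at 3936 and 214 CPM. The 3 young cells were unlike one another. The cell with 3 Sost UMIs was in the fibroblast group and held 28 Sfrp1 and 27 Sfrp2 UMIs with no Dmp1. The second, with 2 Sost UMIs, was in the chondrocyte group, and the third, with 1 Sost UMI, was an osteoblast-group cell with 6 Dmp1, 7 Ptprz1 and 1 Wif1 UMIs. These are single cells of 1 mouse per age, and no test was made on them.

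**Figure D2:**
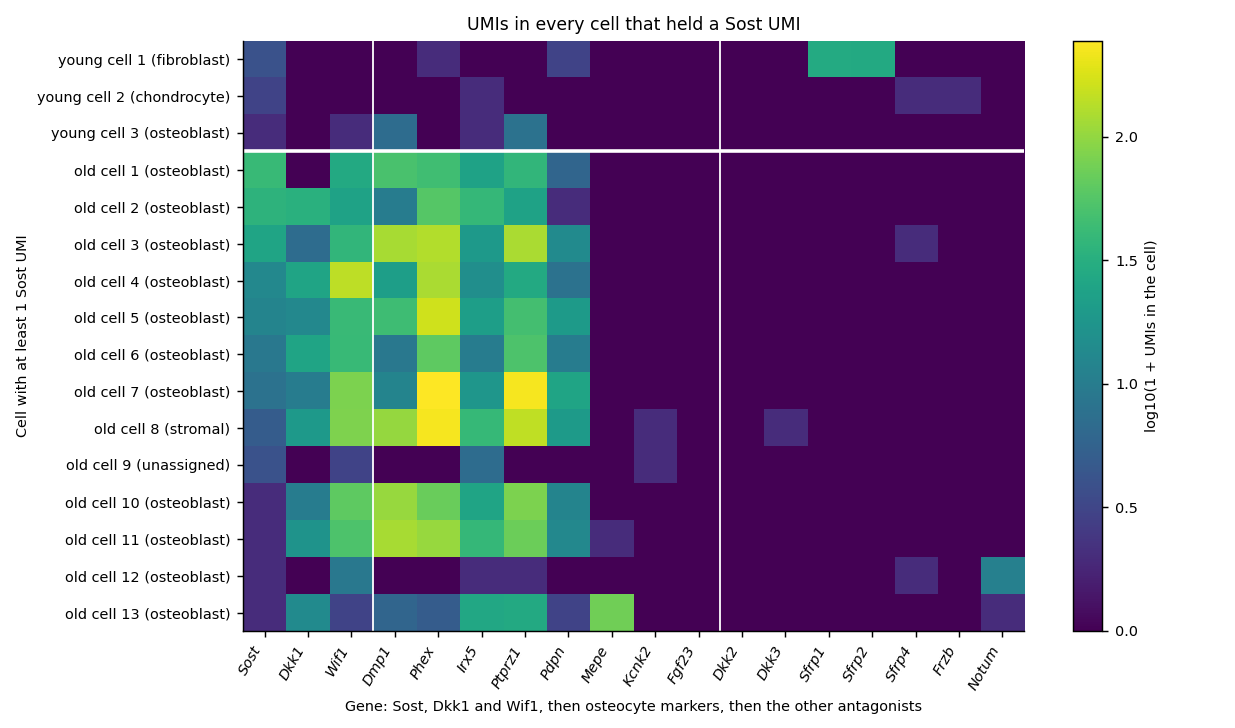
Heat map of log10(1 + UMIs) (colour) for every kept cell with a Sost UMI (rows, with the cell group in parentheses), for Sost, Dkk1 and Wif1, then osteocyte markers, then the other antagonists (columns, parted by white lines). The horizontal line separates the 3 young from the 13 old cells, and Wif1 is above 0 in all 13 old cells.

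Within the osteoblast group, antagonists divided by Dmp1. Cells with a Dmp1 UMI numbered 126 in each library, 14.2% of the young and 25.8% of the old group, with medians of 8054.5 and 17794 UMIs. Of the group's Sost UMIs, 1 of 1 young and 139 of 140 old were in these cells. Dkk1 was at 65.4 CPM with and 44.7 CPM without Dmp1 in the young mouse, a ratio of 1.46 (95% interval 1.13 to 1.88). In the old mouse it was at 170 and 27.9 CPM, a ratio of 6.1 (5.05 to 7.41). Wif1 was higher with Dmp1 by 2.29-fold (2.02 to 2.59) in the young and 2.17-fold (2.00 to 2.35) in the old mouse.

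Dkk3, Sfrp2 and Frzb lay on the other side. Dkk3 was at 19.5 CPM with and 195 CPM without Dmp1 in the young mouse, and at 8.80 and 122 CPM in the old mouse. Sfrp2 was at 3.11 and 82.9 CPM in the young and 18.7 and 118 CPM in the old mouse, and Frzb at 0.778 and 17.9 CPM and at 0.733 and 12.3 CPM. Sfrp4 was 2.16-fold higher (1.81 to 2.56) with Dmp1 in the young mouse and 1.06-fold (0.902 to 1.24) in the old mouse. Whether a Dmp1 UMI is seen depends on depth, and the part of depth in this split was not tested. The intervals are exact for counting error and do not cover differences between mice.

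**Figure D3:**
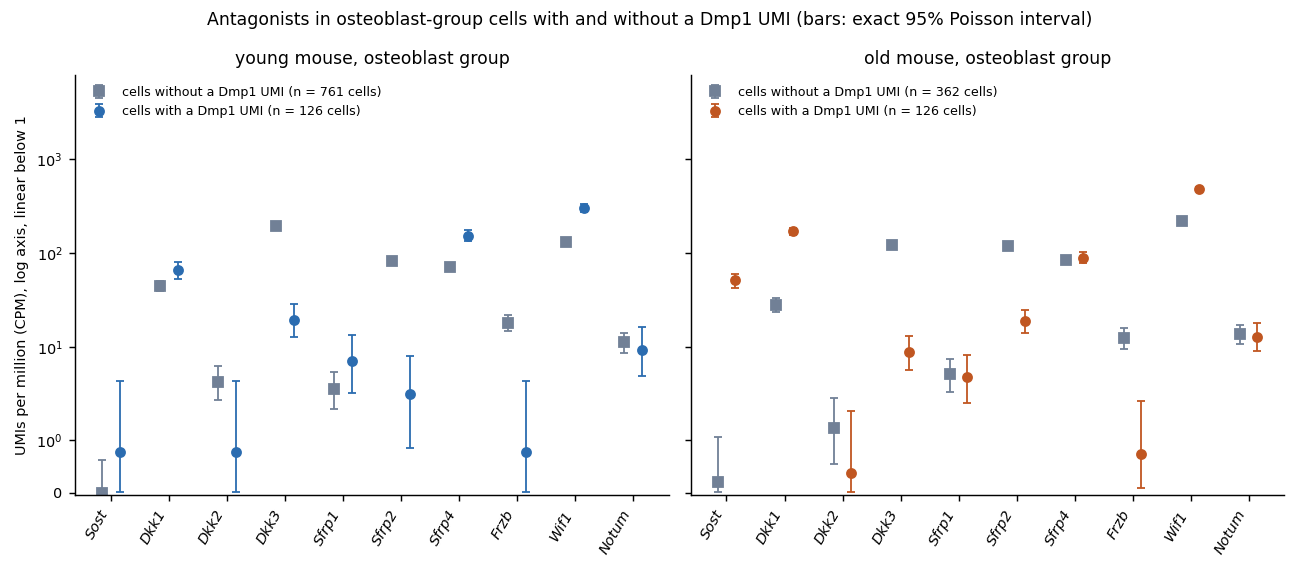
UMIs per 1e6 (y axis, log scale, linear below 1) of the 10 antagonists (x axis) in osteoblast-group cells with (circles) and without (squares) a Dmp1 UMI, for the young mouse at left and the old mouse at right; bars are exact 95% Poisson intervals. Dkk3 lies at 19.5 against 195 CPM in the young and 8.80 against 122 CPM in the old mouse, while Wif1 is higher with Dmp1 in both.

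Co-detection in cells thinned to 2000 UMIs showed the same division. In the osteoblast group, Wif1 was seen in 41.9% of young and 50% of old cells with a Dkk1 UMI, against 14.0% and 22.9% of cells without. It was seen in 4.95% and 9.72% of cells with Dkk3, against 18.3% and 28.0% of those without. In the fibroblast group, Sfrp1 was seen in 21.2% of young and 31.9% of old cells with Dkk2, against 7.87% and 16.9% of the rest. Over all mesenchymal groups, 31.3% of young and 39.4% of old thinned cells held none of the 10 antagonists, and 21.4% and 19.7% held at least 2. The most in 1 cell was 5.

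Other groups were also uneven inside. In tendon cells, those with a UMI of Tnmd, the tendon membrane protein tenomodulin, held Sfrp2 at 1246 CPM and those without at 295 CPM in the young mouse, and at 750 and 161 CPM in the old mouse. Dkk2 was 8.90-fold (6.35 to 12.7) higher with Tnmd in the young and 5.41-fold (3.58 to 8.44) in the old mouse. Frzb was lower with Tnmd, at 5.20 against 25.1 CPM in the young and 4.14 against 9.98 CPM in the old mouse, where the interval of the ratio (0.133 to 1.12) included 1. In fibroblast cells, those with Pi16, a marker of adventitial progenitors, held Sfrp4 at 1551 and 1252 CPM and the others at 822 and 744 CPM. Dkk3 was lower with Pi16, at 42.8 against 79.7 CPM and 49.6 against 105 CPM. In stromal cells Sfrp2 was higher in the few without Esm1, at 161 against 20.9 CPM in the young and 374 against 34.8 CPM in the old mouse. Those cells numbered 303 and 113 and were shallow, with medians of 2650 and 2214 UMIs. Not every division repeated. With Pi16 over without, Wif1 was 1.81-fold (1.56 to 2.10) in the young and 0.448-fold (0.324 to 0.611) in the old mouse. Dkk2 was 0.783-fold and 1.39-fold there. With Esm1 over without, Sfrp4 was 1.70-fold in the young and 0.623-fold in the old mouse.

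The genes whose levels followed each antagonist most closely over the 12 sums were named by Pearson's r of log2(CPM + 5). The 12 points share 6 groups and 2 libraries, so r is a description. Closest to Dkk1 were Chst13 (r = 0.992), AU021092 (0.991) and Mlip (0.990). Nat8f3 (0.985) was closest to Dkk2, Kcnn4 (0.956) to Dkk3, Acvr2a (0.974) to Sfrp1, Six2 (0.962) to Sfrp2 and Mapk7 (0.969) to Sfrp4. Eps8l2 (0.994) was closest to Frzb, followed by Sox9 (0.979), which was itself a chondrocyte marker. Tmbim4 (0.974) was closest to Wif1 and Bmp7 (0.971) to Notum. Sost had too few UMIs for such a comparison.

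Young and old were then set side by side. There was 1 mouse of each age, so no test was possible, and age, mouse and library cannot be told apart. A difference was counted by size, at least 2-fold with 20 or more UMIs in both libraries together, and the intervals cover counting error only. Over all mesenchymal cells, 2 of the 10 antagonists were past 2-fold, both higher in the old library, where 2.52% of the 16408 genes of that depth were. Sost was at 0.104 CPM in the young and 3.11 CPM in the old library (6 and 144 UMIs), a ratio of 29.9 (13.4 to 82.8). Dkk1 was at 6.42 and 13.9 CPM, a ratio of 2.16 (1.90 to 2.47). With cells thinned to 2000 UMIs neither passed the size rule, since Sost kept 0 young and 14 old UMIs, under the 20 needed, and the ratio of Dkk1 was 1.71. As a mean over cells, which gives shallow cells the same weight, Dkk1 was at 5.22 and 8.51 CPM, under 2-fold. Sfrp1 had a ratio of 1.62 (1.55 to 1.69), Sfrp2 of 1.41 (1.36 to 1.46) and Sfrp4 of 0.649 (0.639 to 0.659). The other 5 lay between 0.759 and 0.972. In pooled cells, fewer cells of a kind and less RNA per cell cannot be told apart.

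Within groups, 11 pairs of antagonist and group passed 2-fold. In cells thinned to 2000 UMIs 3 of them still did, Sfrp4 in stromal, Sfrp2 in fibroblast and Notum in chondrocyte cells. Dkk2 in stromal (0.505), Wif1 in fibroblast (0.778) and Frzb in tendon cells (0.623) fell short of 2-fold. The rest of the 11 kept under the 20 UMIs needed. Wif1 in osteoblast, Sfrp1 and Frzb in fibroblast, Sfrp2 in stromal and Frzb in chondrocyte cells passed only when thinned. In osteoblast cells Sost had a ratio of 129 (22.7 to 5114), where 2.15% of 12484 genes were past 2-fold higher in the old library. Dkk2 had a ratio of 0.283 (0.111 to 0.643) on 26 and 8 UMIs, where 3.64% were past 2-fold lower. Wif1 went from 161 CPM in young to 312 CPM in old osteoblast cells, a ratio of 1.94 (1.81 to 2.08) that was 2.53 in thinned cells. Dkk1 had a ratio of 1.60 (1.40 to 1.83), which was 1.54 in thinned cells. Dkk3 was at 0.505 of its young level (0.459 to 0.557). The Dmp1-bearing cells numbered 126 in each library, and the old osteoblast cells were deeper, with a median of 13100.5 against 6670 UMIs. Among cells with Dmp1 the ratio of Dkk1 was 2.60 (2.06 to 3.32), and among those without it was 0.624 (0.505 to 0.767), so the sides moved apart. Wif1 gave 1.60 and 1.69 on the respective sides, and Dkk3 gave 0.452 and 0.626.

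The 11 Sost-bearing cells weighed on these ratios. They held 23.9% of the Dkk1 and 21.0% of the Wif1 UMIs of the old osteoblast group. Without Sost-bearing cells, an alternative added after the data were seen, the ratio was 1.26 (1.09 to 1.45) for Dkk1 and 1.58 (1.47 to 1.70) for Wif1. Dkk3 was little changed at 0.522 (0.474 to 0.575). Osteocyte markers differed in the same group. Of 7 with enough UMIs, 3 were past 2-fold higher in the old library and 0 lower, where 2.15% and 3.64% of all genes were. Phex was at 46.3 CPM in the young and 333 CPM in the old library, Irx5 at 57.2 and 136 CPM and Pdpn at 24.1 and 55.7 CPM, while Dmp1 stood at 190 and 175 CPM. The part of these cells in the differences was tested only by leaving them out.

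In stromal cells, Sfrp4 was at 1008 CPM in the young and 434 CPM in the old library, a ratio of 0.431 (0.419 to 0.442), and Dkk2 had a ratio of 0.378 (0.268 to 0.525). Here 2.33% of the 14407 genes were past 2-fold lower. Dkk1 had a ratio of 9.25 (3.28 to 36) on 4 and 32 UMIs, where 2.51% were past 2-fold higher, and 18 of the 32 were in the 1 stromal cell that also held Sost. In fibroblast cells, Sfrp2 was at 70.9 and 231 CPM, a ratio of 3.26 (3.08 to 3.45), where 2.76% of 14078 genes were past 2-fold higher. Sfrp1 came close, at 77.9 and 150 CPM, a ratio of 1.93 (1.82 to 2.05) that was 2.10 in thinned cells. Wif1 was at 30.6 and 14.2 CPM there, a ratio of 0.463 (0.398 to 0.535) that was 0.778 in thinned cells, against 2.15% of genes past 2-fold lower. The difference in Sfrp2 was alike on both sides of the Pi16 split, at 3.36 and 3.20. The difference in Wif1 was not, at 0.183 (0.134 to 0.244) with and 0.737 (0.617 to 0.878) without Pi16.

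The smaller groups gave wider intervals. In the chondrocyte group, Notum had a ratio of 0.223 (0.123 to 0.378), where 6.71% of 8304 genes were past 2-fold lower. The ratio of Notum was 0.918 (0.395 to 1.97) among cells with a UMI of the chondrocyte marker Matn3. Among those without, it was 0.0976 (0.0349 to 0.221). Wif1 turned between these sides, at 1.87 (1.52 to 2.30) with and 0.436 (0.386 to 0.491) without Matn3. In tendon cells Frzb had a ratio of 0.396 (0.237 to 0.636) and Notum of 0.234 (0.0447 to 0.784) on 21 and 3 UMIs, where 2.77% of 11554 genes were past 2-fold lower. Thinned to 2000 UMIs, Frzb gave 0.623, and Notum kept 5 young and 0 old UMIs. Dkk3 in pericyte or smooth muscle cells had a ratio of 2.79 (1.15 to 8.13) on 6 and 33 UMIs, where 10.7% of 6424 genes were past 2-fold higher.

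**Figure D4:**
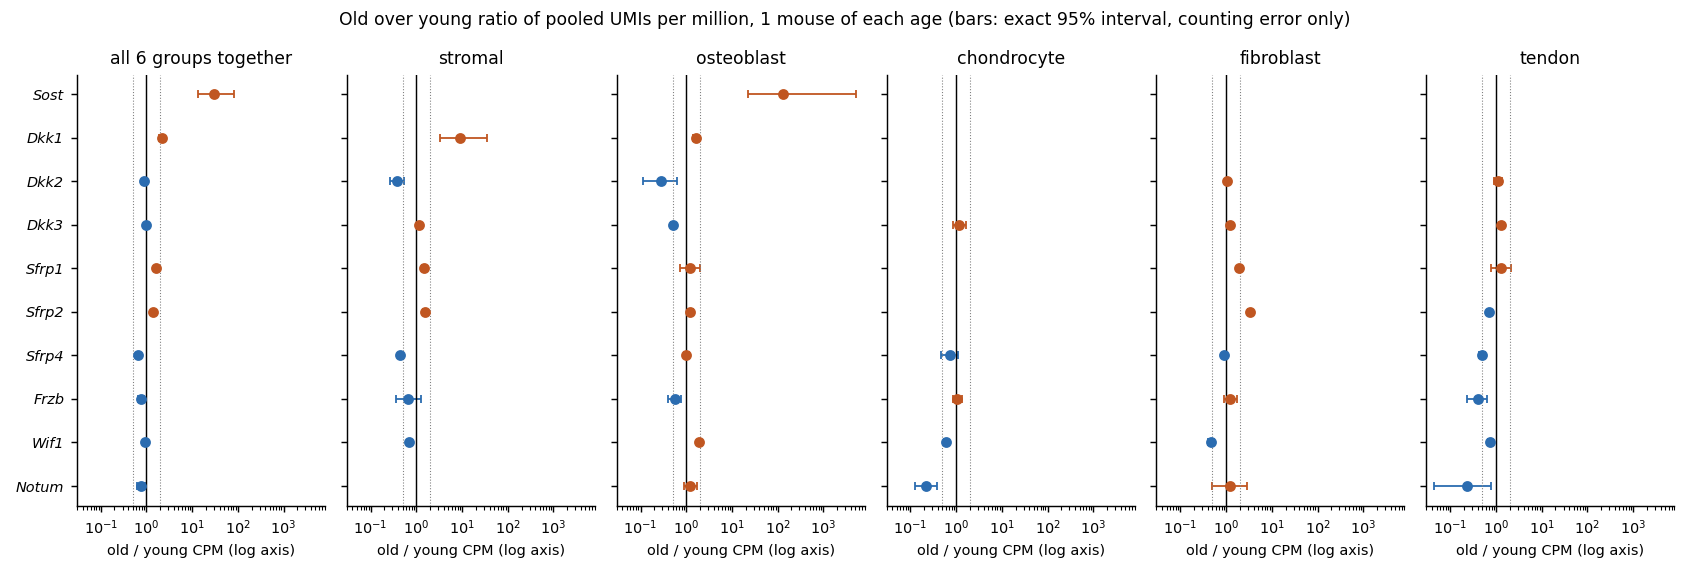
Old over young ratio of pooled UMIs per 1e6 (x axis, log scale) for each antagonist (y axis), over all 6 groups together and in 5 of them; bars are exact 95% intervals for counting error, the solid line marks a ratio of 1 and the dotted lines 2-fold either way, and orange points are above 1 and blue points below. Sost lies at 29.9 together and 129 in osteoblast cells, Sfrp2 at 3.26 in fibroblast cells and Sfrp4 at 0.431 in stromal cells.

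The CD24 antibody asked how the antagonists divided by this surface protein. A threshold was set on the antibody counts of each library by Otsu's method, at 319 counts in the young and 410 in the old library, which marked 592 young and 204 old mesenchymal cells as CD24+. UMIs of CD24+ and CD24- cells were summed per mouse and compared by edgeR with the mouse as a block (n = 2 mice). Of the 10 antagonists, 6 were higher and 3 lower in CD24+ cells, against 9.14% and 7.59% of 15320 genes. CD24+ cells were also of another composition. Osteoblast-group cells made up 34.1% of young and 41.7% of old CD24+ cells but 9.76% and 10.7% of CD24- cells. Chondrocyte-group cells, where Frzb and Notum were highest, made up 8.95% and 6.86% of CD24+ but 1.18% and 1.06% of CD24- cells. Stromal cells went the other way, at 26.2% and 26.5% against 41.5% and 48.0%, as did fibroblast cells, at 20.1% and 16.2% against 37.7% and 32.4%.

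Frzb differed most, at 24.9 CPM in CD24+ and 6.32 CPM in CD24- cells of the young mouse and at 28.0 and 4.82 CPM in the old mouse. Its log2 fold was 2.29 ± 0.18 (adjusted p = 6.94e-05). A single cell held 33.9% of the young and 39.8% of the old CD24+ Frzb UMIs. Dkk1 was at 13.6 and 5.45 CPM in the young and 36.5 and 12.1 CPM in the old mouse (log2 fold 1.52 ± 0.15, adjusted p = 0.000224). Notum had a log2 fold of 1.52 ± 0.34 (adjusted p = 0.0140), Dkk3 of 0.82 ± 0.16 (adjusted p = 0.00666) and Wif1 of 0.78 ± 0.15 (adjusted p = 0.00678). Sost was called on the old mouse alone, at 12.1 and 2.42 CPM, with 0 UMIs in young CD24+ cells (adjusted p = 0.0488). The call of Sost was lost under 7 alternatives, and DESeq2 gave an adjusted p of 0.98. Sfrp1 (-1.29 ± 0.16, adjusted p = 0.000559), Sfrp4 (-1.03 ± 0.11, adjusted p = 0.000295) and Dkk2 (-1.02 ± 0.11, adjusted p = 0.000312) were lower in CD24+ cells. Sfrp2 was at 96.1 and 104 CPM in the young and 21.7 and 155 CPM in the old mouse and did not pass (adjusted p = 0.114).

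With the osteoblast group alone, the picture changed. Dkk3 was the 1 antagonist still called, at 280 CPM in CD24+ and 114 CPM in CD24- cells of the young mouse and at 129 and 72.6 CPM in the old mouse (log2 fold 1.08 ± 0.13, adjusted p = 9.20e-08). Dkk1 (-0.25 ± 0.16, adjusted p = 0.640), Wif1 (-0.18 ± 0.13, adjusted p = 0.724) and Notum (-1.12 ± 0.33, adjusted p = 0.0527) then had the opposite sign. Frzb was at 0.88 ± 0.32 (adjusted p = 0.156). Without the replicate block, 3 of the 9 calls over all groups remained (Dkk2, Sfrp1 and Frzb). The 4 sums leave little room for an estimate of spread, so these p-values rest largely on a spread shared across genes.

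**Figure D5:**
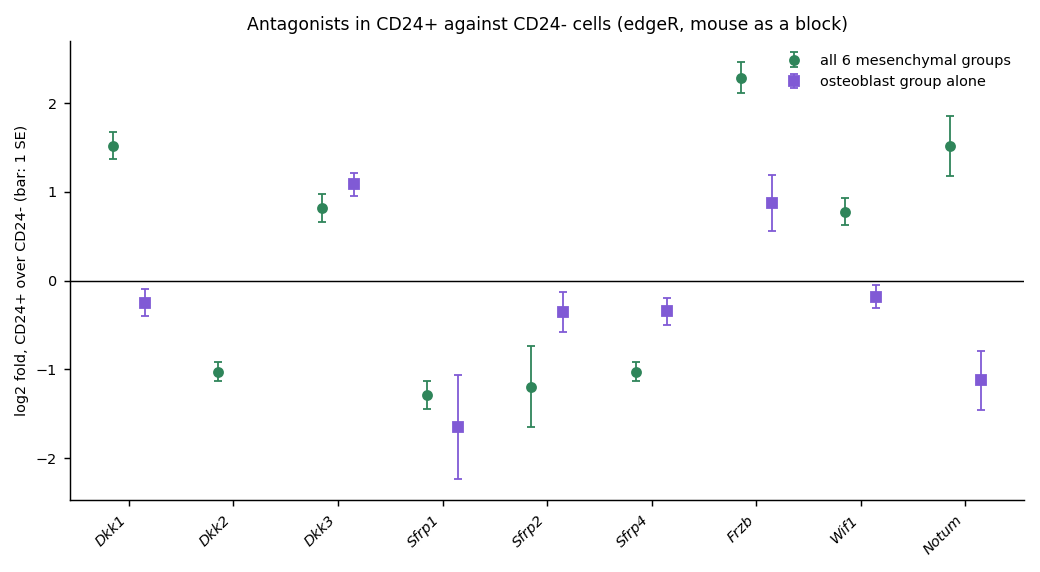
Log2 fold of CD24+ over CD24- cells (y axis) for 9 antagonists (x axis) from edgeR over the sums of 2 mice, for all 6 mesenchymal groups (circles) and for the osteoblast group alone (squares); bars are 1 SE. Dkk3 lies above 0 in both, at 0.82 and 1.08, while Dkk1, Wif1 and Notum lie above 0 over all groups and below 0 in the osteoblast group.

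The genes around the antagonists in the pathway were counted in the same fits. Of 8 osteocyte markers, 7 were tested, and 6 were higher in the osteoblast group, where 13.3% of all genes were. The median log2 fold of the 7 was 3.31 against 0.04 over all genes, or 2.81 with sums at 0 set to a floor of 3 counts. Mepe was at 12.3 and 18.4 CPM in osteoblast cells and at 1.09 CPM or below elsewhere. Dmp1, 1 of the 6, was also an osteoblast marker, so its call is partly built in. In the stromal group 4 of the 7 were higher and 2 lower, where 26.5% and 18.7% of all genes were. Phex stood at 187 and 257 CPM in young and old stromal cells, against 46.3 and 333 CPM in osteoblast cells. Of 18 WNT receptors and co-receptors, 17 were tested. In osteoblast cells 7 were higher and 5 lower, where 13.3% and 8.61% of all genes were. In tendon cells 9 were higher and 1 lower, where 9.63% and 2.94% of all genes were. The median log2 folds in these groups were 0.24 and 0.75 against 0.04 and 0.03 over all genes. Lrp4, a receptor that anchors sclerostin and aids its action, was at 154 and 126 CPM in young and old osteoblast cells and between 2.27 and 28.6 CPM elsewhere (log2 fold 3.83 ± 0.15, adjusted p = 9.17e-08). It was thus highest in the group that held Sost and Dkk1. Fzd9, a Frizzled receptor, was highest in the chondrocyte group at 133 and 88.7 CPM (4.16 ± 0.23, adjusted p = 5.36e-07).

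Of 12 WNT target genes, 10 were tested, Notum among them. In the chondrocyte group 2 were higher and 1 lower, where 11.7% and 8.45% of all genes were, and the median log2 fold was 0.11 against -0.01 over all genes. In osteoblast cells 3 were higher and 1 lower, where 13.3% and 8.61% of all genes were, and the median was 0.26 against 0.04. Lef1, a transcription factor of the pathway, was at 128 CPM in young and 31.8 CPM in old chondrocyte cells (adjusted p = 2.23e-07), the group with the highest Notum. Nkd1, an intracellular brake on the pathway, was lower in osteoblast cells at 3.33 and 0.891 CPM (log2 fold -2.78 ± 0.43, adjusted p = 0.00103). Of 7 other secreted or membrane WNT antagonists, 3 could be tested. Sfrp5 was at 49.6 and 6.82 CPM in the chondrocyte group and at 2.40 CPM or below elsewhere (adjusted p = 0.00291). Apcdd1 was higher in pericyte or smooth muscle cells at 29.4 and 33.9 CPM (1.96 ± 0.35, adjusted p = 0.00236). Trabd2b, a membrane protease of WNT, was lower in osteoblast cells at 4.16 and 2.67 CPM (-3.68 ± 0.29, adjusted p = 9.07e-06). In CD24+ cells 3 of 7 osteocyte markers were higher and 0 lower, 4 of 17 receptors were higher and 5 lower, and 2 of 10 target genes were higher and 2 lower. Of all genes, 9.14% were higher and 7.59% lower, and the median log2 folds of the lists were 0.28, 0.03 and -0.18 against -0.01.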

How the data were processed

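Single cells of 2 mice were profiled by CITE-seq with a 10x 3' kit and 1 CD24 antibody. The authors deposited raw UMI counts per gene and antibody, aligned per the submitters' processing notes with cellranger 6.1.1 to mm10. The annotation release was not given in the sources used here. Genes and antibody counts were used as deposited. The 10 antagonists and all gene lists were chosen with earlier results of these data known.

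Barcodes with under 200 genes or over 20% mitochondrial UMIs were removed in Python 3.11.15. Scrublet marked 2.67% of young and 1.02% of old cells as doublets, which were kept, and their removal was an alternative. CPM scales the UMIs of pooled cells to 1e6. UMIs were summed per group and mouse and tested with edgeR 4.0.16 (quasi-likelihood, TMM, filterByExpr, Benjamini-Hochberg). DESeq2 1.42.0 was an alternative. The mouse was a block, because sums of 1 animal pair by animal. The block removes the difference in level between the 2 mice. The p-values rest on how unevenly the group or CD24 differences repeat in the 2 mice, which were of different ages. They also rest on a spread that edgeR shares across genes. The group fit left 5 residual degrees of freedom and the CD24 fit 1, so the CD24 p-values rest largely on the shared spread. Kept cells summed to 81076421 UMIs (young) and 66702846 UMIs (old).

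All 10 antagonists were named. Of each gene list, up to 2 called genes a direction with the largest fold were named. Where a sum held 0 UMIs, levels are given in place of the fitted fold. The tests were tried on simulated sums, in which 200 genes were changed by 2 on the log2 scale. In the osteoblast comparison (13520 genes) 200 of 200 were recovered, with 16 false calls (7.41% of calls). The changed genes were drawn from those of higher level and no other gene differed, so recovery of sparse antagonists was not tested. Intervals are exact 95% Poisson or conditional binomial intervals and cover counting error only.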

Additional observations from a re-analysis of the deposited data

Results flagged for a closer look

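For 4 antagonists with at least 20 UMIs in both libraries together, the 95% counting interval of the old over young ratio lay above 1 in 1 group and below 1 in another. These differences were not tested, since there was 1 mouse per age. Dkk2 had a ratio of 1.07 in fibroblast cells and 0.283 in osteoblast cells. Dkk3 had a ratio of 2.79 in pericyte or smooth muscle cells and 0.505 in osteoblast cells. Sfrp2 had a ratio of 3.26 in fibroblast cells and 0.706 in tendon cells. Wif1 had a ratio of 1.94 in osteoblast cells and 0.463 in fibroblast cells.

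Antagonist UMIs also appeared in blood-marker classes, which were in no test between groups, above the level that a count of 0 allows. Sfrp4 was at 25.1 CPM in young and 12.4 CPM in old erythroid cells, at 10.3 CPM in young B lineage cells and at 20.2 CPM in old neutrophil cells. Dkk3 was at 5.09 CPM and Sfrp2 at 4.07 CPM in young erythroid cells. Sfrp2 was at 103 CPM in old megakaryocyte cells, where 111 UMIs stood in 2 cells. The part of free RNA and of doublets in these values was not tested.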

How the results depend on the processing

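Of the 29 calls of antagonist and group, 21 were kept and 8 lost when cells were thinned to 2000 UMIs, 3 were lost with 4 markers needed, and DESeq2 kept all 29 and added 8. Thinning left 4045 genes called in stromal (6359 as reported), 1528 in osteoblast (3080), 1015 in chondrocyte (2837), 1134 in tendon (1769) and 1759 in pericyte cells (2823). With markers counted from 1 UMI, Sfrp4 in the chondrocyte group turned to a log2 fold of 0.18. Without the replicate block, 28 pairs of antagonist and group were called, and 5997, 2850, 2824, 3320, 1565 and 2782 genes in the groups from stromal to pericyte.

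For CD24, 2564 genes were called. The count was 1609 without doublets, 829 thinned, 344 in the osteoblast group alone, 1347 by DESeq2 and 762 without the replicate block. Called antagonists fell from 9 to 3 without the replicate block and to 1 in the osteoblast group alone, where the log2 folds of Dkk1, Wif1 and Notum were -0.25, -0.18 and -1.12. Without the old mouse, the log2 fold of Sost was -0.034, and without the young mouse 1.20. Leaving out 1 mouse leaves no test, so no count of calls was given.

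Between ages, 2 antagonists passed 2-fold over all groups. The number was 1 at 3-fold, 0 thinned and 1 as a mean over cells. Within groups 11 pairs passed 2-fold and 6 passed 3-fold, and 8 passed 2-fold thinned, 3 of them among the 11. For Notum in tendon cells, thinned to 5 young and 0 old UMIs, the log2 ratio was 0.75 with the 0 set to a floor of 3 counts. The cause of these changes was not tested beyond the smaller number of UMIs, genes or cells that each alternative leaves.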
